A study of Mus musculus with 3 samples.

Results

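The genes described here are 38 genes of DNA replication and mitosis, 18 whose products copy DNA or prepare its building blocks and 20 whose products act in the division of the cell. They are given by symbol, not by a limit on measured values, and all 38 were found among the 32285 features of the count matrices. The study exposed Fgf4 -/- mouse embryonic stem cells of the E14tg2a line for 24 h to no FGF4, a low dose or a high dose, to see how the growth factor changes the state of single cells and the differences between them. The groups are cells with 0 ng/ml FGF4, cells with 5 ng/ml and cells with 50 ng/ml, and all of them were kept in N2B27 medium with Chiron, an inhibitor of the kinase GSK3, and 1 µg/ml heparin. Each dose was 1 single-cell RNA library made with 10x Genomics 3′ chemistry, which counts unique molecular identifiers (UMIs), that is, single captured transcripts. There is thus no replicate at any dose, no test between doses was made, and every interval below is a 95% interval for counting error only.

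Replication genes are transcribed as a cell approaches and enters S phase, largely under E2F transcription factors, and mitosis genes are transcribed later, in G2 and M phase, where many of their promoters carry a CHR element and CCAAT boxes. In an unsynchronised culture each cell is caught at 1 point of this cycle, so genes of the same phase vary together among cells. Embryonic stem cells divide fast, spend little time in G1 and are known for a weaker periodicity of some cycle regulators than other dividing cells.

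RefSeq promoters (GRCm38.p6, 250 bases before to 50 bases after the start of a gene) were matched for 34 of the 38 genes, 16 of replication and 18 of mitosis. The E2F-like letters TTTCCCGC, TTTCGCGC, TTTGCCGC or TTTGGCGC, read on both strands, were found in 7 of the 16 replication genes (Cdc6, Cdt1, Hells, Mcm3, Mcm5, Mcm6 and Mcm7), in 1 of the 18 mitosis genes (Cdk1) and in 2.61% of the 27025 genes with a promoter. The CHR-like letters TTTGAA were found in 14 of 18 mitosis genes, 3 of 16 replication genes and 20.2% of all genes. CCAAT was found in 16 of 18 mitosis genes, 10 of 16 replication genes and 41.1% of all genes. Both CHR-like and CCAAT letters stood in 13 of 18 mitosis genes, in 2 of 16 replication genes and in 7.97% of all genes. These are matches of letters in a window, not bound sites. The 150 bases before the start are shown, 5′ to 3′, for 2 replication genes with E2F-like letters and for 4 mitosis genes whose behaviour among cells is compared below; capitals mark E2F-like letters in the Mcm genes, CHR-like letters (TTTGAA or TTCAAA) in the mitosis genes and CCAAT (or ATTGG) in both. They lie at chr1:128359706-128359855 (Mcm6, minus strand), chr8:75109359-75109508 (Mcm5, plus strand), chr11:99024190-99024339 (Top2a, minus strand), chr19:37376232-37376381 (Kif11, plus strand), chr4:118437344-118437493 (Cdc20, minus strand) and chr9:70421555-70421704 (Ccnb2, minus strand).
Mcm6: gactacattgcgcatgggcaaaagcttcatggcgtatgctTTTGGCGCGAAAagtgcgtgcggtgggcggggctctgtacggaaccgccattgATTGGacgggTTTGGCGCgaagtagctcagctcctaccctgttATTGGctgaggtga
Mcm5: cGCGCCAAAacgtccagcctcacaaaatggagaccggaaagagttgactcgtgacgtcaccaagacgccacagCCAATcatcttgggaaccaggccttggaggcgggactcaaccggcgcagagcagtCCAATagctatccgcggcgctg
Top2a: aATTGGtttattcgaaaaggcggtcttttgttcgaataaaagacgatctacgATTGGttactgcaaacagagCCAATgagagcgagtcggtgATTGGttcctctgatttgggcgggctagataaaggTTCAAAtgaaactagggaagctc
Kif11: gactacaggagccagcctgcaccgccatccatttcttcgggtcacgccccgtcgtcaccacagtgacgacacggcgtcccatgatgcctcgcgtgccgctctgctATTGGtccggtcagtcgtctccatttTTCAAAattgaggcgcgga
Cdc20: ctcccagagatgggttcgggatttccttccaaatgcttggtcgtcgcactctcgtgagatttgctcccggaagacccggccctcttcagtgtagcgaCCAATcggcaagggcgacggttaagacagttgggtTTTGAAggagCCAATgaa
Ccnb2: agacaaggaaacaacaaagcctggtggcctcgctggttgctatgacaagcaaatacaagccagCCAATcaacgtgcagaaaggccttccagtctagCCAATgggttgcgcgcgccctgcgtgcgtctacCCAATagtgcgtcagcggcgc
In Mcm6 a pair of E2F-like matches on opposite strands overlap in the first run of capitals, and no other printed matches overlap. The CHR-like matches of Ccnb2 lie after its start and are not printed, so its stretch shows 3 CCAAT boxes.

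The 3 libraries held 373, 874 and 975 cells at 0, 5 and 50 ng/ml, with 42726514, 75184072 and 81409975 UMIs in all and no cell barcode shared between any of them. Median UMIs per cell were 107873, 91763.5 and 87334, highest without FGF4. More than 10% mitochondrial UMIs were found in 12, 133 and 153 cells, so the 2 libraries with FGF4 held more such cells. All 10 embryonic stem cell markers checked reached 20 CPM, the UMIs of a gene scaled to a common library total, in every library. None of 12 fibroblast, primitive endoderm and trophoblast markers did, and their summed level was 11.8, 15.9 and 21.8 CPM, with 2, 3 and 3 of them at 0. All 38 replication and mitosis genes lay at or above 20 CPM and at or above 0.2 UMI per cell in every library, so none was lost to a filter.

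Together the 38 genes made up 0.661%, 0.648% and 0.638% of all UMIs at 0, 5 and 50 ng/ml. The 18 replication genes took 0.287%, 0.304% and 0.297%, and the 20 mitosis genes took 0.374%, 0.345% and 0.341%. The replication genes thus had a slightly larger share with FGF4 and the mitosis genes a slightly smaller one. The median log2 ratio of the replication genes was 0.12 at 5 over 0 ng/ml and 0.06 at 50 over 0 ng/ml, against 0.03 and 0.02 for all genes with at least 20 CPM. When each cell was given equal weight, the value at 50 over 0 ng/ml turned to -0.02, with -0.07 for all genes. With UMIs per cell in place of CPM, where all genes shifted by -0.42 and -0.47, the replication medians were -0.295 and -0.401, above that shift. The median of the mitosis genes was -0.14 and -0.17 in these comparisons, and it was below 0 under every scaling tried. In cells with at most 10% mitochondrial UMIs and a total within 3-fold of the median, the medians at 5 and at 50 over 0 ng/ml were 0.123 and 0.062 for replication genes and -0.127 and -0.16 for mitosis genes. Such cells were 96.2%, 80.8% and 81.8% of all cells at 0, 5 and 50 ng/ml. UMIs per cell was taken over all cells, and how far the others set its shift was not tested. Between the doses with FGF4, 50 over 5 ng/ml, the medians were -0.01 for replication genes and -0.0027 for mitosis genes, with -0.01 for all genes. A lower summed level cannot tell fewer cells in mitosis from less transcript in each of them.

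At 5 over 0 ng/ml none of the 38 genes was higher by 25% or more, where 11.0% of the 5691 genes considered were, and none was lower by 20% or more, which is the same fold downwards, where 10.2% were. At 50 over 0 ng/ml 1 gene passed upwards (Gins2), against 13.8% of 5709 genes, and 2 passed downwards (Bub1 and Cenpf), against 14.3%. These counts moved with the scaling, but the share of all genes past the limits was not counted under the other scalings. TMM left 0 past the lower limit. Equal weight for each cell, which shifted the median of all genes by -0.09, gave 0 past the upper and 7 past the lower one. UMIs per cell gave 0 and 33. There all genes shifted by -0.47, which alone passes the lower limit, so these counts are not a result about the members. At 50 over 5 ng/ml none passed in either direction, where 0.745% and 1.91% of 5501 genes did. No member differed 2-fold in any comparison, where 2.72%, 4.01% and 0.127% of all genes did at 5 over 0, 50 over 0 and 50 over 5 ng/ml. At 50 over 0 ng/ml 19 of the 38 genes lay above a ratio of 1 and 19 below it, against 3065 above and 2644 below of 5709 genes. The 2 groups differed, with 14 of 18 replication genes and 5 of 20 mitosis genes above a ratio of 1.

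**Figure D1:**
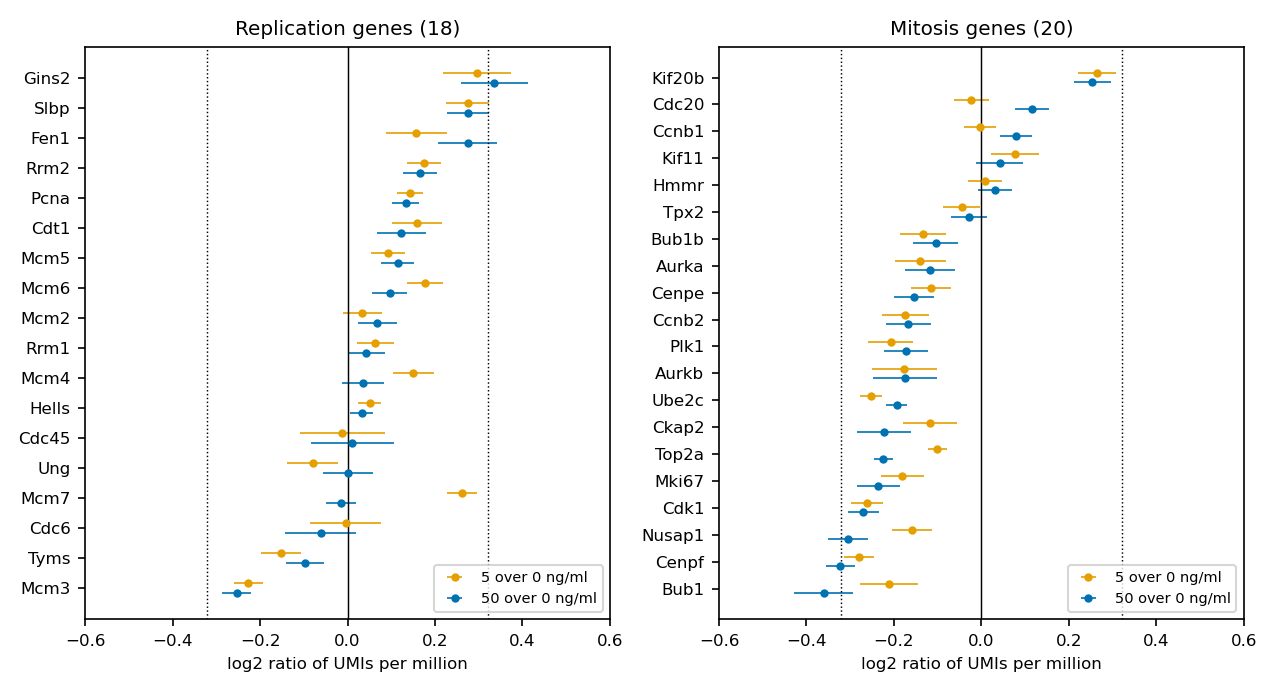
Log2 ratio of CPM for the 18 replication genes (left) and the 20 mitosis genes (right), 5 over 0 ng/ml in orange and 50 over 0 ng/ml in blue, with 95% counting intervals; dotted lines mark 25% higher and 20% lower. Most replication genes lie right of 0 and most mitosis genes left of it, and Gins2, Bub1 and Cenpf alone pass a dotted line.

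Among the genes that build the replication machinery, Gins2 and Slbp stood highest. Gins2, a subunit of the GINS complex of the replicative helicase, was at 45.7, 56.1 and 57.7 CPM at 0, 5 and 50 ng/ml, which is 1.26-fold higher (1.20 to 1.33) at 50 than at 0 ng/ml. Its exons overlap those of Gse1 on the opposite strand, and whether counting used the strand is not given in the sources used here. Slbp, which binds the stem-loop of histone mRNAs, was at 116 CPM without FGF4 and at 141 CPM at both doses. Fen1, the flap nuclease of lagging-strand synthesis, was at 58.1, 64.8 and 70.3 CPM. For these 3 genes both libraries with FGF4 were above the library without it in CPM, while in UMIs per cell, where all genes shifted down, Gins2 had a log2 ratio of -0.12 and Slbp of -0.181 at 50 over 0 ng/ml.

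The 6 Mcm genes, whose products form the ring of the replicative helicase, did not move together. Mcm3 was at 291, 248 and 244 CPM, 1.19-fold lower at 50 than at 0 ng/ml, and was the lowest of the 18 replication genes at both doses. Mcm7 was at 249, 299 and 246 CPM, so it stood apart only at 5 ng/ml, where it was 1.20-fold higher (1.17 to 1.23) than at 0 ng/ml. Its exons hold the microRNA genes Mir25 and Mir93 and overlap Cops6 and Ap4m1 on the opposite strand. Mcm2, Mcm4, Mcm5 and Mcm6 had log2 ratios of 0.07, 0.04, 0.11 and 0.10 at 50 over 0 ng/ml. The ring subunits therefore spanned both sides of 0 in the same cells.

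The enzymes of nucleotide supply also differed. Rrm2, the small subunit of ribonucleotide reductase, was at 183, 207 and 205 CPM, and Rrm1, the large subunit, at 159, 167 and 164 CPM. Tyms, which makes thymidylate, was at 153, 138 and 143 CPM, below its level without FGF4 at both doses. Pcna, the sliding clamp of DNA polymerases, was at 303, 334 and 332 CPM, and Cdt1, which loads the helicase at origins, at 87.8, 98.0 and 95.6 CPM. Hells, a chromatin remodeller, was the most abundant replication gene at 419, 434 and 429 CPM. Cdc6, another loading factor, Cdc45, a helicase subunit, and Ung, which removes uracil from DNA, had log2 ratios of -0.06, 0.01 and 0.00 at 50 over 0 ng/ml, with intervals that held equal levels.

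Of the 20 mitosis genes, 17 had a ratio below 1 at 5 over 0 ng/ml and 15 at 50 over 0 ng/ml, against 2531 of 5691 and 2644 of 5709 genes. The counting interval lay below 1 in 15 and 14 of them. This was not counted over all genes, so it cannot be set against a background. Bub1, a kinase of the spindle checkpoint, was at 70.6, 60.9 and 55.0 CPM, a ratio of 0.779 (0.743 to 0.816) at 50 over 0 ng/ml. Cenpf, a kinetochore protein, was at 278, 229 and 222 CPM, a ratio of 0.80 (0.781 to 0.819). Nusap1, which bundles spindle microtubules, was at 144, 129 and 116 CPM. Cdk1, the kinase that drives entry into mitosis, was at 241, 201 and 200 CPM, already lower at 5 ng/ml and no lower at 50 ng/ml beyond counting error. Top2a, the topoisomerase that untangles sister chromatids and the most abundant of the 38 genes, was at 646, 602 and 553 CPM. Ube2c, the ubiquitin-conjugating enzyme of the anaphase-promoting complex, was at 513, 430 and 448 CPM.

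Mitosis genes whose level at 50 ng/ml was not below that without FGF4 were Kif20b, Cdc20, Ccnb1, Kif11 and Hmmr. Kif20b, a kinesin of cytokinesis, was at 147, 177 and 176 CPM, 1.19-fold higher (1.16 to 1.23) at 50 than at 0 ng/ml, against a log2 ratio of -0.202 in UMIs per cell. Cdc20, the activator of the anaphase-promoting complex, was at 188, 185 and 204 CPM, and Ccnb1, the cyclin partner of Cdk1, at 223, 223 and 236 CPM. Kif11, the motor that separates spindle poles, and Hmmr, a spindle-associated protein, had log2 ratios of 0.04 and 0.03 at 50 over 0 ng/ml, with intervals that held equal levels. The remaining 9 genes had log2 ratios between -0.24 and -0.03. They are Mki67, a coat protein of mitotic chromosomes, Ckap2 and Tpx2, which act on spindle microtubules, the kinases Aurkb, Plk1 and Aurka, the cyclin Ccnb2, the motor Cenpe and the checkpoint protein Bub1b.

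Differences between cells were read in the same filtered cells, 359, 706 and 798 cells, each thinned to 25000 UMIs. A thinned cell held on average 71.9, 77.0 and 75.3 UMIs of the replication genes at 0, 5 and 50 ng/ml, and 90.1, 83.3 and 82.9 UMIs of the mitosis genes. The coefficient of variation of the replication sum was 0.266, 0.238 and 0.227, where counting alone would give 0.118, 0.114 and 0.115. For the mitosis sum it was 0.394, 0.342 and 0.333, where counting alone would give 0.105, 0.110 and 0.110. At 0 ng/ml the mitosis sum lay at 50 UMIs in the cell at the 10th percentile and at 138 UMIs at the 90th. Both sums varied more among cells without FGF4 than among cells at either dose, although with 7000 UMIs and all cells that reach them (369, 794 and 896, with neither filter) the replication sum did not, with 0.335, 0.353 and 0.340. At this fixed depth, the mitosis sum was higher in cells with more total UMIs, with Pearson r of the log2 values of 0.42, 0.38 and 0.33 over 359, 706 and 798 cells, while for replication genes r was 0.13, -0.10 and -0.11.

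Per gene, spread was measured as excess variation, the variance minus the mean over the squared mean, which is 0 where only counting varies. Its median was 0.213, 0.199 and 0.20 for mitosis genes at 0, 5 and 50 ng/ml and 0.0798, 0.0922 and 0.0784 for replication genes, against 0.0897, 0.0923 and 0.0897 over the 8048, 8010 and 7947 genes with at least 0.2 UMI per cell. Over the 4005, 3998 and 3692 genes within the range of mean levels of the 38 genes, the median was 0.0719, 0.0692 and 0.0682. Mitosis genes therefore varied more than either median in all 3 libraries. Replication genes were close to the median of all genes, but above that of genes in their range of levels. Nusap1 was the most variable mitosis gene, with 0.577, 0.372 and 0.353, and Cdc6 the most variable replication gene at 5 and 50 ng/ml, with 0.420, 0.639 and 0.513. Ung had 0.444 at 0 ng/ml and 0.171 and 0.229 with FGF4. At the other end, Ccnb2 had 0.0760, 0.0354 and 0.0773, where Plk1, with a similar mean, had 0.277, 0.255 and 0.218. Excess variation was lower at 50 than at 0 ng/ml in 15 of 20 mitosis genes and in 10 of 18 replication genes, with median log2 ratios of -0.30 and -0.21, against 49.7% of 7604 genes measured in both libraries.

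**Figure D2:**
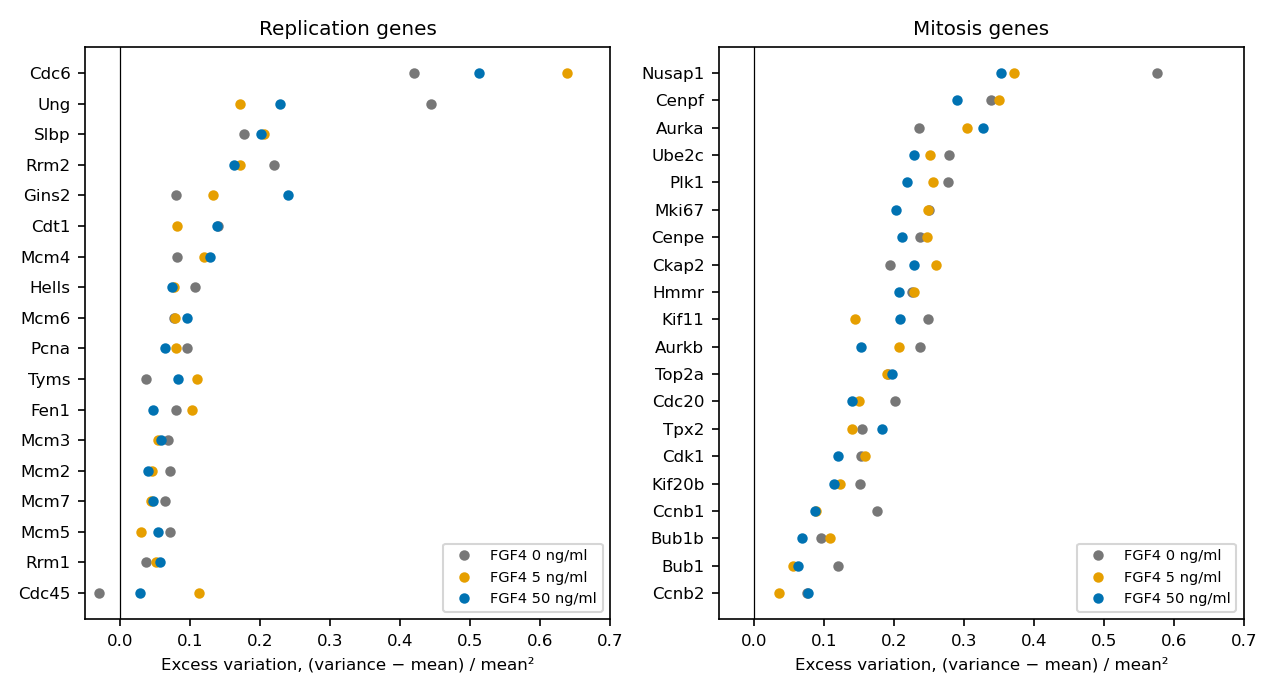
Excess variation of each gene among cells thinned to 25000 UMIs, for replication genes (left) and mitosis genes (right), 1 point per library (grey 0, orange 5 and blue 50 ng/ml FGF4). Cdc6 stands to the right among replication genes, with Ung beside it at 0 ng/ml, and Nusap1 among mitosis genes, while Ccnb2 and Bub1 lie lowest among them at 5 ng/ml.

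Genes of the same phase varied together. Across cells of 1 library, the median Pearson r of log2(UMIs + 1) over the 190 pairs of mitosis genes was 0.253, 0.176 and 0.171 at 0, 5 and 50 ng/ml, and over the 153 pairs of replication genes it was 0.141, 0.114 and 0.0924. Between the groups, over 360 pairs, it was -0.0201, -0.0465 and -0.0244. Pairs share the cells, the depth and the counting noise, which holds r down, so the values are descriptions. Of the mitosis pairs 186, 179 and 182 had a positive r, and of the replication pairs 140, 143 and 140. Mitosis genes were most tightly linked without FGF4 in each of 7 alternative settings, in which the median lay between 0.109 and 0.349 at 0 ng/ml, between 0.0790 and 0.263 at 5 ng/ml and between 0.0852 and 0.245 at 50 ng/ml. Dose and library cannot be told apart here.

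Single genes showed how uneven this is. Ube2c had a median r with the other mitosis genes of 0.395, 0.283 and 0.271, and Cenpf had 0.388, 0.236 and 0.275. Cdc20 had 0.199 at 0 ng/ml and 0.0819 and 0.0820 at 5 and 50 ng/ml. Ccnb2, with 0.103, 0.00766 and 0.0112, was nearly unlinked to its group wherever FGF4 was present, although its mean of 2.44 and 2.51 UMIs per thinned cell was close to that of Plk1, 2.48 and 2.55 UMIs, which had 0.222 and 0.253. Tyms was the replication gene least linked to its group, with 0.0113, 0.00709 and 0.0300.

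**Figure D3:**
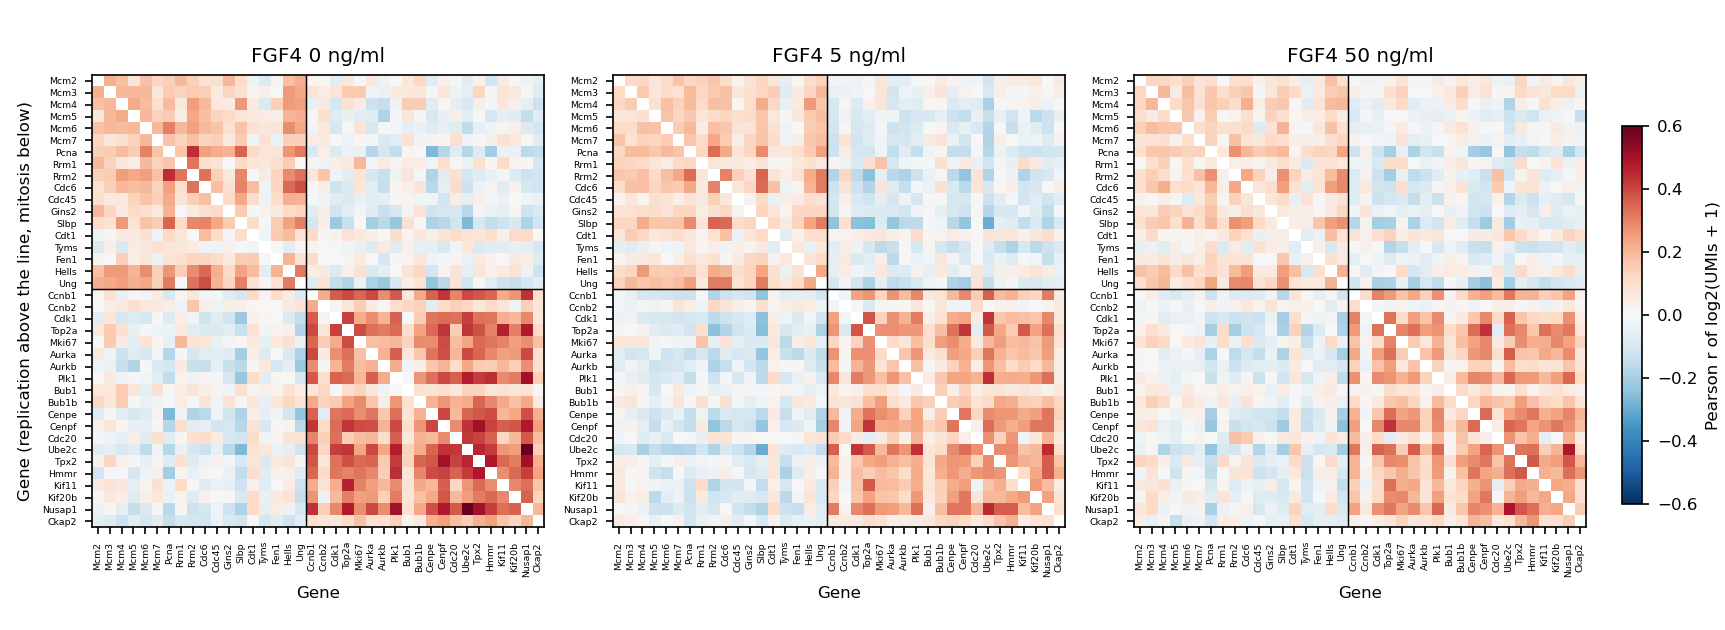
Pearson r of log2(UMIs + 1) between all pairs of the 38 genes across thinned cells of each library, from blue (negative) over white to red (positive); black lines part replication from mitosis genes. The mitosis block is darkest at 0 ng/ml, and the rows of Ccnb2, Bub1 and Tyms are pale in all 3 libraries.

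To place the genes in the cycle, each cell was given an angle from the first 2 principal components of the genes other than the one read, and a cosine was fitted to that gene's standardised log2 level. Its top is the peak position in degrees and its height the amplitude in SD. An angle of 0° is the mean replication peak. The direction was set so that Top2a, Kif11, Cdk1 and Nusap1 come before Cdc20, Plk1, Ccnb1 and Aurka, so the order of these 8 genes is used and not found. It rests on 5.94, 8.43 and 6.39 degrees between the means of the 2 groups of 4, and it was mirrored in 3 of the 26 recomputed cases that differed from the first, so no order along the circle is read here.

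The mitosis genes peaked 104, 111 and 102 degrees from the replication genes at 0, 5 and 50 ng/ml, so the distance between the groups was close in all libraries. The median amplitude of mitosis genes was 0.666, 0.562 and 0.559 SD, that of replication genes 0.415, 0.386 and 0.334 SD, and that of all genes 0.124, 0.105 and 0.105 SD. An amplitude of at least 0.3 SD was reached by 33, 31 and 26 of the 38 genes, against 5.41%, 4.36% and 4.53% of all genes. The circle is built from these genes, so a high count is in part set by the method, and what it shows is which members follow the others and which do not. Between libraries, peaks of genes with at least 0.3 SD in both moved by a median of 6.39 degrees (5 and 0 ng/ml, 14 replication genes) and 7.40 degrees (16 mitosis genes), and by 9.09 and 6.52 degrees for 50 and 0 ng/ml (10 and 16 genes). Amplitudes of mitosis genes were below those at 0 ng/ml in 17 of 20 genes at 5 ng/ml and in 19 of 20 at 50 ng/ml, against 58.3% of 7679 and 57.8% of 7604 genes measured in both libraries. With 7000 UMIs and all 369, 794 and 896 cells that reach them the median was no longer highest without FGF4, with 0.365, 0.312 and 0.374 SD.

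**Figure D4:**
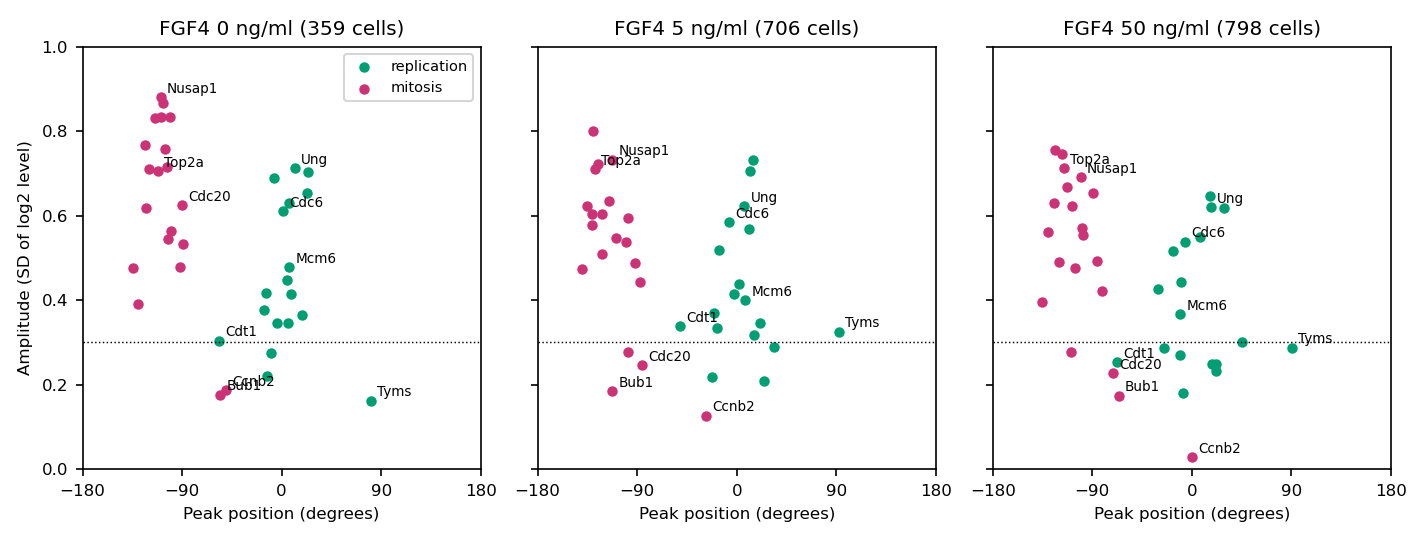
Peak position (degrees, 0 is the mean replication peak) and amplitude (SD of the standardised log2 level) of each of the 38 genes in each library; the dotted line marks 0.3 SD. Mitosis genes (pink) gather about 100 degrees from replication genes (green), Cdc20 drops below the line at 5 and 50 ng/ml, and Ccnb2 lies lowest at both doses of FGF4.

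Most of the mitosis genes kept a strong rhythm at every dose. Nusap1 had amplitudes of 0.882, 0.733 and 0.691 SD, Ube2c 0.832, 0.801 and 0.756 SD and Top2a 0.706, 0.711 and 0.714 SD. Kif11 had 0.546, 0.508 and 0.476 SD. Cut into 8 sectors of the circle, the mean of Nusap1 ranged from 1.26 to 6.14 UMIs at 0 ng/ml, from 1.56 to 5.15 at 5 ng/ml and from 1.43 to 4.90 at 50 ng/ml. Cdc20 stood out among them, with 0.625 SD at 0 ng/ml and 0.247 and 0.227 SD at 5 and 50 ng/ml. Its sector means ranged from 2.38 to 6.21 UMIs at 0 ng/ml, from 3.74 to 5.37 at 5 ng/ml and from 4.10 to 5.50 at 50 ng/ml, so its trough was shallower at both doses while its total level was not lower at 50 ng/ml. Its amplitude was highest at 0 ng/ml in all 9 other settings that changed it. The amplitude of Ccnb1 was also lower with FGF4, by less, with 0.716, 0.577 and 0.491 SD. The exons of Cdc20 overlap those of Elovl1 on the opposite strand.

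Ccnb2 and Bub1 had the lowest amplitudes of the mitosis genes. Ccnb2, a B-type cyclin with CHR-like letters and CCAAT boxes in its promoter, had 0.187, 0.127 and 0.0290 SD, and at 60000 UMIs per cell 0.121, 0.118 and 0.0279 SD. Its sector means at 50 ng/ml ranged from 2.21 to 2.80 UMIs, and its amplitude stayed below 0.3 SD in every setting tried. Ccnb1, the other B-type cyclin, has CCAAT but no TTTGAA in its window, and other forms of the CHR element were not searched. Ccnb1 had the larger amplitude at every dose, and a link to the promoter was not tested. Bub1 had 0.177, 0.184 and 0.174 SD, and 0.337, 0.218 and 0.276 SD at 60000 UMIs. A second draw of 25000 UMIs gave it 0.308 SD at 0 ng/ml. Full depth scaled to 25000 UMIs gave 0.383, 0.306 and 0.356 SD, so Bub1 did not stay below 0.3 SD in every setting at any dose. In that setting the median of the mitosis genes was 0.81, 0.77 and 0.77 SD, so Bub1 was still below its group.

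Among replication genes, Slbp, Ung, Pcna, Rrm2, Cdc6 and Hells had amplitudes above 0.5 SD at every dose, with Slbp at 0.703, 0.732 and 0.648 SD. Cdc6 varied more than 4-fold between sectors in every library, from 0.465 to 1.92 UMIs at 0 ng/ml, from 0.407 to 1.92 at 5 ng/ml and from 0.444 to 1.93 at 50 ng/ml. Rrm1 and Fen1 were below 0.3 SD in every library at this depth, although Rrm1 encodes the partner of Rrm2 in the same enzyme. A pair of genes sat away from the rest of the group. Cdt1 peaked at -56.7, -50.9 and -67.8 degrees, on the arc between the mitosis and the replication peaks, with 0.304, 0.338 and 0.254 SD. Tyms peaked at 80.7, 92.4 and 90.5 degrees, on the far side of the replication peak, with only 0.162, 0.326 and 0.288 SD.

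**Figure D5:**
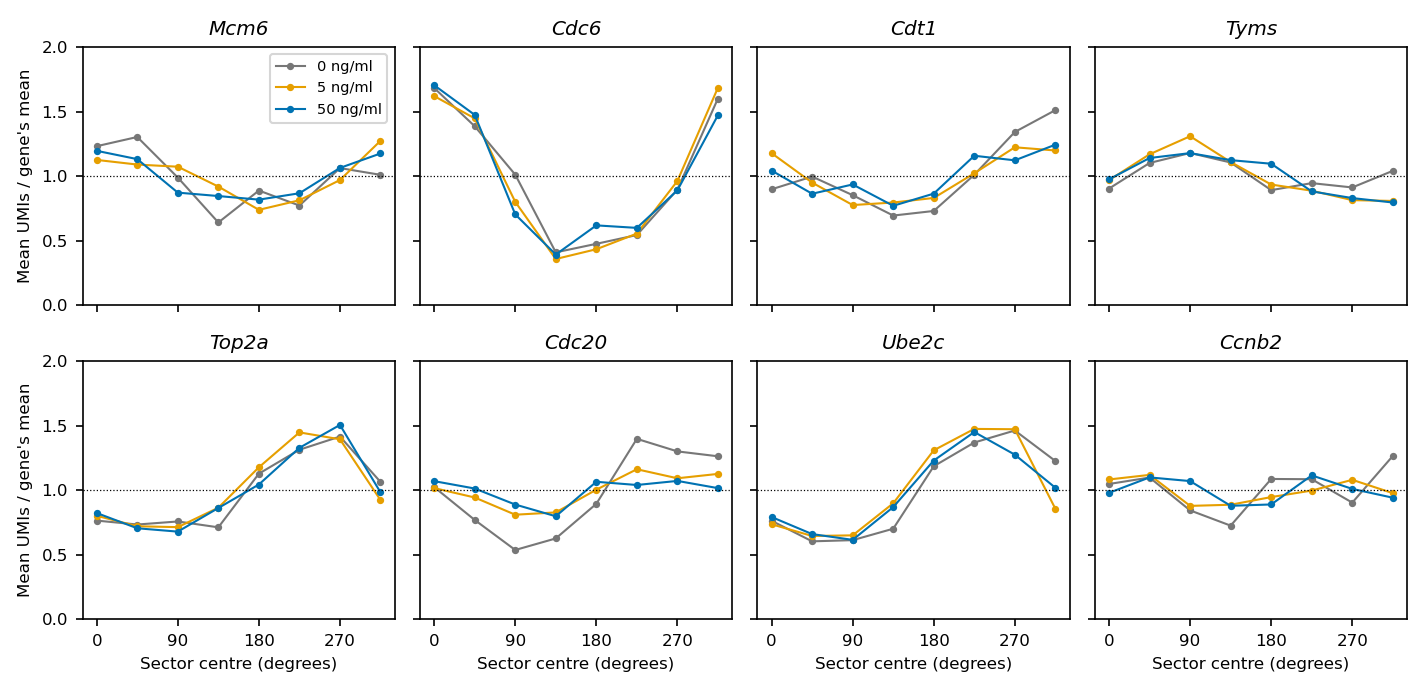
Mean UMIs of 8 genes in 8 sectors of the circle, relative to the mean of the gene in that library, for 0 (grey), 5 (orange) and 50 ng/ml FGF4 (blue), in cells thinned to 25000 UMIs. Top2a, Ube2c and Cdc6 follow nearly the same course at all doses, the trough of Cdc20 is deepest at 0 ng/ml, and Ccnb2 follows no such course.

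Total UMIs per cell, which thinning removes and the circle does not use, also changed along it. At 0 ng/ml the sector median was lowest at 135 degrees, with 86611 UMIs, and highest at 315 degrees, with 143616 UMIs. The sector at 0 degrees, beside the highest one, had 96348.5 UMIs. At 5 ng/ml it was lowest at 45 degrees, with 85709.5 UMIs, and highest at 270 degrees, with 123274 UMIs, and at 50 ng/ml lowest at 90 degrees, with 79314 UMIs, and highest at 270 degrees, with 117597.5 UMIs. In all 3 libraries the centre of the highest sector thus lay between the mitosis peak and the replication peak. This does not depend on the direction in which the circle is read. Sectors are 45 degrees wide, and at 5 and 50 ng/ml the mitosis peak itself, at -111 and -102 degrees, fell within the highest sector. The sectors held between 29 and 56 cells at 0 ng/ml, between 79 and 101 at 5 ng/ml and between 80 and 114 at 50 ng/ml.

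Other genes of the same pathways went the same way in their medians. Of 54 other replication genes, 48 reached 20 CPM, and their median log2 ratio was 0.13 at 5 over 0 ng/ml and 0.14 at 50 over 0 ng/ml, of which 4 were higher by 25% or more and 2 lower by 20% or more at the high dose, again against 13.8% and 14.3% of all genes. The highest were Ccne1, the G1/S cyclin, at 190, 296 and 331 CPM, Rfc5, a clamp loader subunit, at 136, 174 and 200 CPM, and Tipin, of the fork protection complex, at 175, 219 and 241 CPM, while E2f1, Wdr76 and Blm were lowest. Of 50 other mitosis genes, 48 were considered, with medians of -0.08 and -0.15, with 1 past the upper and 10 past the lower limit at 50 over 0 ng/ml, where 13.8% and 14.3% of all genes passed. Cdca3, a trigger of mitotic entry, was 1.57-fold lower (1.52 to 1.62), and Pttg1 and Kif4 followed, while G2e3, Birc5 and Cks1b were highest. Among 16 cycle regulators considered, the CDK inhibitor Cdkn1b was at 23.9, 12.0 and 10.3 CPM, 2.33-fold lower (2.12 to 2.55) at 50 than at 0 ng/ml, E2f5 and Dtl were next lowest, and E2f4, Tfdp1 and Cdkn1c were highest.

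The amplitudes of Birc5, the survivin subunit of the Aurkb complex, were 0.417, 0.0812 and 0.103 SD at 0, 5 and 50 ng/ml, and those of Cdca3 were 0.334, 0.196 and 0.154 SD. A smaller rhythm with FGF4 was thus also measured in some genes outside the 38, but not in all. Prc1, of the same list, had 0.865, 0.842 and 0.828 SD, and Smc4 had 0.635, 0.619 and 0.626 SD. In the other mitosis genes 30, 20 and 19 of 49 measured reached 0.3 SD, and in the other replication genes 21 of 53, 19 of 54 and 19 of 54, against 5.41%, 4.36% and 4.53% of all genes. Among 7520 genes outside the 38, the one most like the mean replication level by its lowest r of the 3 libraries was Ccne1 (0.465), followed by Uhrf1, Nasp, Hspd1, Nolc1, Hspa5, Mcm10 and Cdc25a. For the mean mitosis level it was Prc1 (0.545), and Arl6ip1, Cks2, Kpna2, Smc4, Cdca2 and Aspm were among the next.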

How the data were processed

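The deposited matrices hold counts of UMIs per gene and cell barcode as whole numbers, written by Cell Ranger 4.0.0 as read from the file headers, with reads placed on mm10 per the submitters' processing notes. How barcodes were chosen, and whether trypsin or Accutase was used for a given library, are not given in the sources used here. For each gene the UMIs of a library were added up and divided by the library total to give CPM, with totals of 42726514, 75184072 and 81409975 UMIs at 0, 5 and 50 ng/ml. Levels carried exact Poisson and ratios conditional binomial intervals. Comparisons took in genes whose level was 20 CPM or more in either library.

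Among cells, filtered at 10% mitochondrial UMIs and 3-fold of the median total, thinning was without replacement with a fixed seed. Doublets were called per library with Scrublet in scanpy 1.11.5, which marked 12, 7 and 26 cells, and these were kept, with an alternative that leaves them out. RNA free in the droplets was not measured, and no cell type that should lack these genes was present to read it from. Python 3.11.15, numpy 2.4.6 and scipy 1.17.1 were used, and edgeR 4.0.16 for TMM factors alone. The scripts were tested on simulated data. The members and gene lists were chosen with earlier results of these data known.

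Genes named were all 38 members, the 3 highest and 3 lowest genes at 50 over 0 ng/ml of each other list, and the 8 genes most like each group, 1 of which is not reported here. Amplitudes of Birc5, Cdca3, Prc1 and Smc4 were singled out after their values were seen, as were the members described at length. Positions in GENCODE M21 (GRCm38, the assembly of mm10) showed exons of another gene on the same strand in 2 members (Mcm7 and Top2a) and on the opposite strand in 9. Transcripts were compared with minimap2 2.31 for copies at least 95% identical over 300 bases or more. On the same strand 7 members (Ccnb1, Cdc20, Mcm7, Pcna, Rrm2, Slbp and Tyms) had such a copy, none of them among the features, so their counts are less certain. On the opposite strand Fen1 matched Gm10143 and Gins2 matched Gse1, both among the features, with 113 and 4958 UMIs in all. Slbp also matched Gm10459 there, which is not a feature. Other scalings, filters, depths, seeds, cell sets and measures were tried.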

Additional observations from a re-analysis of the deposited data

How the results depend on the processing

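Of 309 recomputed summary values, 233 stayed within a set tolerance, 58 moved further, 13 counts became smaller and 5 larger. For ratios the tolerance was the median counting error of single genes, and for counts it was 1.5-fold. For values among cells it was a sampling error over cells, which are not replicates, so it sorts the values and tests nothing. The cause of a move was not tested unless the setting itself gives it. With UMIs per cell in place of CPM, which shifted the median of all genes by -0.42 at 5 over 0 ng/ml and -0.47 at 50 over 0 ng/ml, the medians were -0.295, -0.401 and -0.053 for replication genes (5 over 0, 50 over 0, 50 over 5 ng/ml) and -0.55, -0.626 and -0.046 for mitosis genes, 27 and 33 members were lower by 20% or more at 5 and at 50 over 0 ng/ml, 0 were higher, and Gins2 turned to -0.12. With equal weight for each cell, replication medians were 0.068 and -0.021 and mitosis medians -0.209 and -0.266 at 5 and 50 over 0 ng/ml. The medians of all genes were then -0.04 and -0.07. In this setting 3, 7 and 1 members were lower in the 3 comparisons and 0 higher at 50 over 0 ng/ml. The share of all genes past the limits was not counted under the other scalings. Members lower at 50 over 0 ng/ml numbered 0 with TMM and with median-of-ratios scaling and 1 in filtered cells, and the higher count was 0 when mitochondrial and ribosomal protein genes left the total. Median-of-ratios scaling gave replication genes 0.03 at 50 over 5 ng/ml, with 0.03 for all genes too. At limits of 1.5-fold and 2-fold both counts were 0.

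Values among cells moved with the depth per cell. At 60000 UMIs, at 0, 5 and 50 ng/ml, the variation coefficient of the sums was 0.36, 0.316 and 0.315 (mitosis) and 0.237, 0.222 and 0.205 (replication), r within mitosis genes was 0.349, 0.263 and 0.245, and amplitude of replication genes 0.605, 0.571 and 0.493 SD. There, mitosis amplitudes were 0.685 and 0.683 SD and excess variation 0.168 and 0.178 at 5 and 50 ng/ml, and at 5 ng/ml replication genes had excess variation of 0.0794 and r of 0.186. At 7000 UMIs, where both filters on cells were also dropped (369, 794 and 896 cells), so that depth and cells cannot be told apart, the coefficients were 0.435, 0.407 and 0.414 (mitosis) and 0.335, 0.353 and 0.34 (replication), r within mitosis genes 0.109, 0.079 and 0.0852, amplitudes 0.365, 0.312 and 0.374 SD (mitosis) and 0.256, 0.245 and 0.232 SD (replication), excess variation of replication genes 0.113, 0.129 and 0.121 and of mitosis genes 0.226 at 50 ng/ml, and 15, 16 and 15 members reached 0.3 SD. The share of all genes that reach 0.3 SD was not counted at this depth, so these counts have no background. Amplitude of mitosis genes at 7000 UMIs was highest at 50 ng/ml. At full depth scaled to 25000 UMIs the coefficients were 0.323 (mitosis) and 0.219 (replication) at 5 ng/ml and 0.206 (replication) at 50 ng/ml, and excess variation at 5 ng/ml was 0.172 and 0.0815. Without doublets, excess variation was 0.169 (mitosis) and 0.0819 (replication) at 5 ng/ml and 0.0916 (replication) at 50 ng/ml. With equal numbers of cells, the replication coefficient at 5 ng/ml was 0.251 and excess variation at 50 ng/ml 0.102.

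The direction of the circle was mirrored at 5 ng/ml with 7000 UMIs and unfiltered cells, at 0 ng/ml without doublets and at 50 ng/ml with equal numbers of cells, while distances moved by a median of at most 12.7 degrees. Of the 30 cases, 26 differed from the first. No paired analysis was possible because each dose was 1 library.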
